A study of Mus musculus with 24 samples.

Results

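Bone marrow-derived macrophages labelled Trem2(-/-) were compared with wild-type macrophages before any treatment. The comparison used 7 of the 24 mouse RNA-seq libraries of the study: the 4 untreated wild-type (WT) libraries numbered 1 to 4, and 3 untreated Trem2(-/-) libraries (KO) numbered 79, 80 and 82. A further untreated library labelled Trem2(-/-), number 81, has a wild-type level of Trem2, so it was left out of the main test and its values are given beside the results. All groups are C57BL/6 macrophages grown from fresh bone marrow for 7 days with supernatant of L929 fibroblasts, a cell line that secretes the growth factor CSF1. The study crossed the 2 genotypes with 3 conditions, in 4 libraries each: no treatment, 24 hours of medium from dying AML12 hepatocytes that had been given 800 µM palmitate (ACM), and 24 hours of 500 nM sphingosine 1-phosphate (S1P). The labels name no animals, litters or separate cultures, and do not say how the Trem2 allele was made. The p-values below thus reflect library-to-library spread alone, and this spread may be technical. The WT numbers all precede the KO numbers, so genotype cannot be told apart from anything else that may have differed between WT and KO libraries.

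TREM2 is a lipid-sensing receptor on the surface of macrophages, microglia and osteoclasts. It has no signalling tail of its own: it pairs with the adaptor TYROBP (DAP12), which recruits the kinase SYK and signals through phospholipase C gamma and PI3 kinase. It is known for supporting survival, lipid uptake and storage, and clearance of dying cells, and its gene sits in a cluster of related receptors with activating and inhibiting members.

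Recovered read totals of the 7 libraries were 17.7 to 25.2 M, and 10579 to 10892 genes reached 1 FPKM (fragments scaled to exon length and library size) in each. Defining macrophage markers were present: Adgre1 (F4/80) stood at 194 to 202 FPKM in WT and 196 to 201 FPKM in KO, Cd68 at 779 to 884 and 848 to 883 FPKM, and Csf1r at 304 to 315 and 327 to 338 FPKM. Library 81 stood apart from the other KO libraries. Over genes with enough reads, its chi-square per degree of freedom against KO libraries 79, 80 and 82 was 13.6 to 16.4, while these 3 differed from each other by 2.60 to 2.92 and the WT libraries by 2.80 to 4.85. Against the 4 WT ACM libraries the value for library 81 was 4.87 to 5.64, and against the untreated WT libraries 8.87 to 11.8. Of 2511 genes that separated WT ACM from untreated WT libraries without overlap, library 81 lay on the ACM side of the midpoint for 63.3%, and libraries 79, 80 and 82 for 19.2%, 21.7% and 22.8%. Of 363 genes for which all 12 WT libraries and the 11 other KO libraries did not overlap, library 81 lay within or beyond the WT range for 325 and within or beyond the KO range for 18. Its values thus go against its genotype label, and no other label was given to it here.

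Untreated KO macrophages differed from WT in many genes by small amounts. Of 10847 genes with at least 1 FPKM in at least 3 of the 7 libraries, 871 passed an adjusted p of 0.05 in limma on log2(FPKM + 1), which is 8.03% of the genes tested: 414 were higher in KO (3.82%) and 457 lower (4.21%). For 730 of the 871 the difference was under 0.5 log2 units, and the median size was 0.24. By contrast, 39 genes differed by at least 1 log2 unit, 27 of them higher and 12 lower. The 4 WT and 3 KO libraries did not overlap for 2493 genes, 23% of those tested, and for 870 of the 871. All differences below are KO minus WT on this log2 scale unless a level in FPKM is named, and the scale understates changes of genes near 0. Counts of gene lists below are to be read against these shares of all genes, and the lists were chosen with earlier results of these data known. Scaling each library to a common sum (TPM) left 1033 calls but shifted them to 268 higher and 765 lower, so the balance of directions depends on the scaling. A single short RNA gene, Gm23935, took 5.29 to 9.18% of the FPKM sum in the WT libraries, 9.55 to 13.5% in the KO libraries and 11.5% in library 81, and its part in this shift was not tested.

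**Figure D1:**
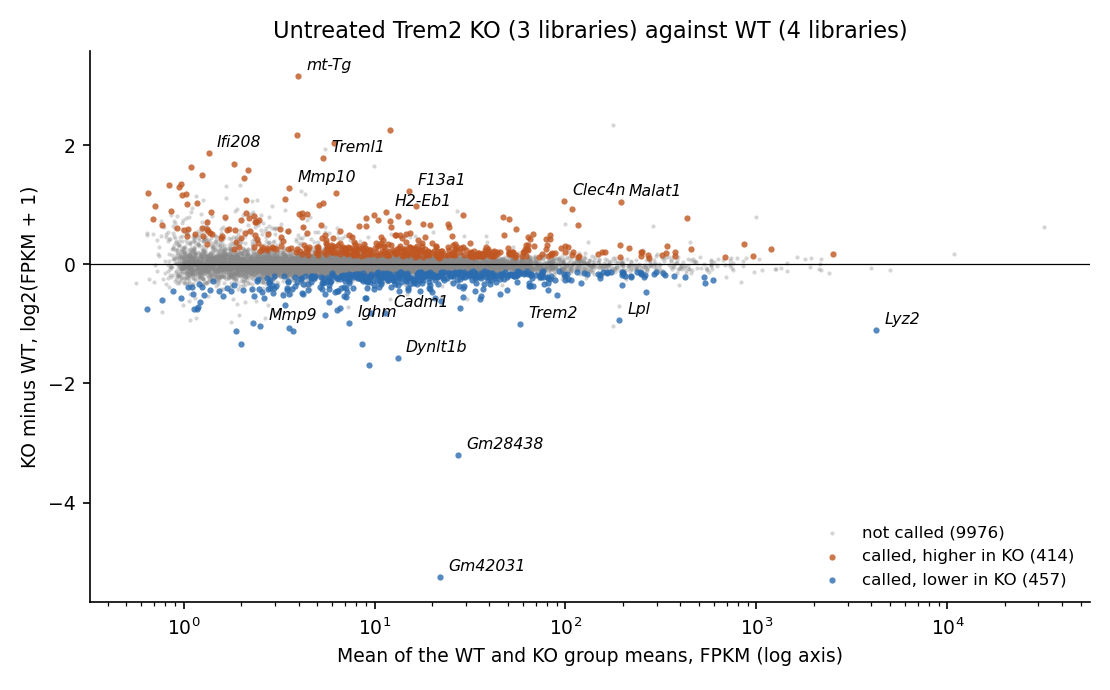
KO minus WT difference (log2 of FPKM + 1, vertical) against the mean of the 2 group means in FPKM (log axis) for the 10847 genes tested, with genes that passed the test in colour. Most of the 871 coloured genes lie within 0.5 of 0, while Gm42031, Gm28438, mt-Tg, Ifi208, Treml1, Lyz2, Lpl and Trem2 stand away from the cloud.

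With library 81 added to the KO group, 33 of 10931 genes passed (0.302%): 14 were higher (0.128%) and 19 lower (0.174%). All 33 had also passed without it, and they make up 3.79% of the 871. The unadjusted p was under 0.05 for 2548 genes without library 81 and 1638 with it. Of 870 genes whose groups did not overlap, library 81 lay inside the WT range for 218 and beyond it, away from KO, for 328. It lay between the groups for 188, inside the KO range for 78 and beyond it for 58. The 33 genes include Lyz2 (-1.11), Malat1 (1.04), Ighm (-0.98), Lsr (-0.85), Scd1 (-0.42), Cxcl2 (-0.43), Pros1 (-0.38), Itgax (-0.39), Ccnd2 (0.27), Hilpda (0.30), Ms4a6d (0.27) and Oas2 (0.21), the differences being those without library 81.

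The targeted gene came first as a check of the labels. Trem2 stood at 74.5, 82.7, 75.3 and 78.6 FPKM in the WT libraries and 40.2, 35.7 and 38.9 FPKM in the KO libraries, with 79.6 FPKM in library 81. The 3 KO libraries are the lowest and do not overlap WT, and library 81 lies inside the WT range. The difference was -1.01 (SE 0.05), and -0.75 with library 81. Since library 81 was left out for this value, the Trem2 difference is a description with no test. The KO mean was 0.492 of the WT mean, and a value per gene does not show which exons the remaining reads cover.

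Neighbouring receptor genes moved the other way. Treml1, which encodes a TREM-like receptor best known from platelets, stood at 1.69, 2.06, 2.14 and 1.56 FPKM in the WT libraries and 9.07, 10.6 and 6.97 FPKM in the KO libraries, with 1.03 FPKM in library 81. Every KO library of the 3 was above every WT library, and library 81 was the lowest of all 8. Treml1 rose by 1.78 (SE 0.13, limma adjusted p = 0.000196). Trem1, an activating receptor that amplifies inflammatory signals in myeloid cells, stood at 12.4, 11.1, 12.4 and 11.6 FPKM in the WT libraries and 19.2, 15.9 and 17 FPKM in the KO libraries, with 6.9003 FPKM in library 81, and rose by 0.51 (SE 0.07, limma adjusted p = 0.00319). Treml2, a receptor for T cell costimulation, rose by 0.25 (SE 0.03, limma adjusted p = 0.00311), and here library 81 was higher still at 17.2 FPKM. With library 81 the differences were 1.21 (limma adjusted p = 0.283) for Treml1, 0.21 (limma adjusted p = 0.745) for Trem1 and 0.32 (limma adjusted p = 0.0645) for Treml2.

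**Figure D2:**
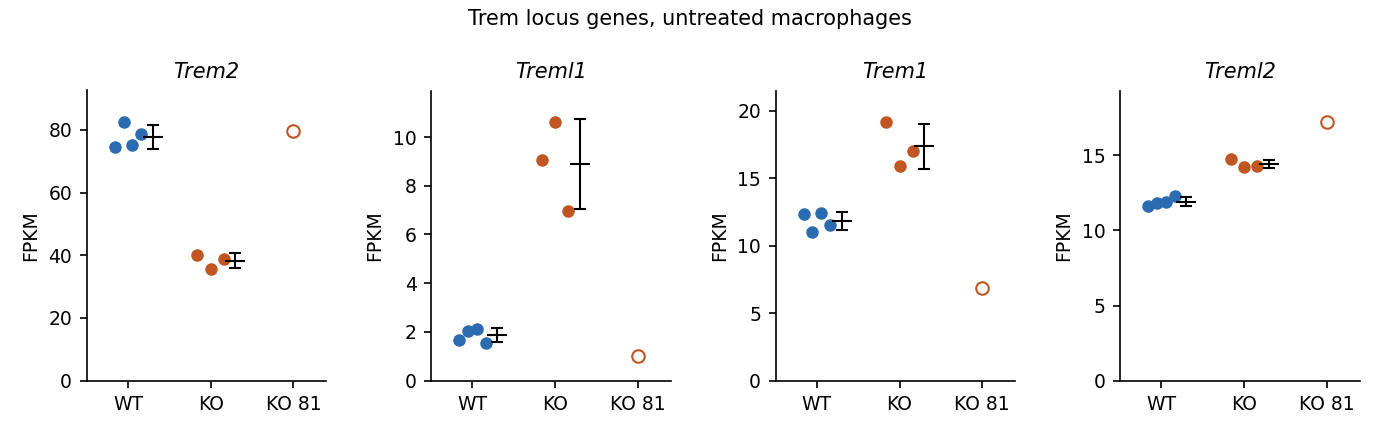
Levels in FPKM (vertical, from 0) of 4 receptor genes around Trem2 in untreated libraries, with 1 filled point per library, the group mean and SD beside them, and library 81 as an open circle. Trem2 is lower in the 3 KO libraries while Treml1, Trem1 and Treml2 are higher, and library 81 sits at the WT level for Trem2 and below WT for Treml1 and Trem1.

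Within 0.25 Mb of the Trem2 start on chromosome 17, 5 of the 8 tested genes other than Trem2 passed (62.5%, against 8.03% of all genes), all of them higher. Besides the 3 receptors above these were B430306N03Rik (0.22) and A530064D06Rik (0.78). In the ACM and S1P libraries Treml1 (1.73 and 1.76) and Trem1 (1.11 and 1.83) stayed higher in KO. The others did not keep their direction: Treml2 was -0.36 and 0.05, B430306N03Rik -0.26 and -0.50, and A530064D06Rik 0.35 and -0.14. Of these, Treml2 and A530064D06Rik did not pass under S1P. Nfya and Oard1, the next genes beyond Treml1, did not pass (0.02 and -0.07), nor did Trem3 (0.04). Within 5 Mb the share was 9.52% of 63 genes, again without Trem2, close to the share over all genes, and single autosomes and X ranged from 6.37% to 9.58%.

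The stretches before the starts of the 2 genes that moved most in opposite directions are shown because they lie side by side in the targeted locus. They are the 250 bases before each start from RefSeq on GRCm38.p6, for Trem2 at chr17:48346151-48346400 and for Treml1 at chr17:48359666-48359915, both on the plus strand. Capitals mark GAGGAA or its reverse complement, the core letters bound by PU.1, the factor that sets myeloid identity.
Trem2: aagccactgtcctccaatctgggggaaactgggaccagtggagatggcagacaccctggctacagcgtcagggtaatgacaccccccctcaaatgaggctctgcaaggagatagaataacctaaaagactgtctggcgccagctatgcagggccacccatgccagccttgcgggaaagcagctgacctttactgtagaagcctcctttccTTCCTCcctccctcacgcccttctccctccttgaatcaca
Treml1: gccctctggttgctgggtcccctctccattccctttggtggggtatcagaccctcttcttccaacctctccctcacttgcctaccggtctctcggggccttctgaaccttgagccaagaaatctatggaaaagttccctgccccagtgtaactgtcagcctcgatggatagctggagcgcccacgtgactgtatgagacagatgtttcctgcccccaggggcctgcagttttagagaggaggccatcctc
The Trem2 stretch holds 1 match, on the minus strand from 40 to 35 bases before the start, and the Treml1 stretch none. Of 32851 stretches of this length in the table, 23.3% hold the motif on either strand, so a match is common and is given as a description.

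The adaptor and the kinase of TREM2 did not pass. Of 28 tested genes of TREM2 signalling, 3 rose and 1 fell (14.3%, against 8.03% of all genes), and with TPM scaling 2 rose and 3 fell, with a median of 0.04 (-0.01 over all genes). Tyrobp, the adaptor, stood at 600 to 697 FPKM in WT and 664 to 699 FPKM in KO and did not pass (0.07, limma adjusted p = 0.482). The kinase gene Syk did not pass either (0.09, limma adjusted p = 0.115). Those that rose were Cd33, an inhibitory sialic acid receptor (27.3, 27.4, 26.9 and 28.5 FPKM in WT, 36.1, 36.4 and 34.5 FPKM in KO, difference 0.36), the phosphatase gene Inpp5d (0.20) and Plcg2 (0.13). Pik3cd, a PI3 kinase catalytic subunit, fell by 0.13. Leaving out 1 library ended the call for Plcg2 in 5 of 7 fits and for Pik3cd in 6 of 7. In library 81 Cd33 was at 16.7 FPKM, below every WT library, and none of these 28 genes passed with it in limma (6 at an unadjusted p under 0.05).

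Lpl, Cd36 and Scd1, which release, take up and desaturate fatty acids, were lower. Lpl, the lipoprotein lipase that frees fatty acids from circulating triglyceride, stood at 254, 249, 246 and 252 FPKM in the WT libraries and 125, 137 and 129 FPKM in the KO libraries, with 262 FPKM in library 81. The groups are far apart with little spread inside each, and library 81 is above every WT library. Lpl fell by 0.93 (SE 0.04, limma adjusted p = 5.57e-06), so that WT levels were 1.92 times those of KO. Cd36, a scavenger receptor for fatty acids and oxidised lipoproteins, stood at 297, 294, 311 and 322 FPKM in the WT libraries and 221, 221 and 219 FPKM in the KO libraries, with 389 FPKM in library 81, and fell by 0.47 (SE 0.04, limma adjusted p = 0.000257). Scd1, the desaturase that makes monounsaturated fatty acids, stood at 57.7, 55.9, 55.7 and 56.6 FPKM in the WT libraries and 39.7, 41.7 and 44.2 FPKM in the KO libraries, with 41.8 FPKM in library 81. It fell by 0.42 (SE 0.04, limma adjusted p = 0.000528) and kept its call with library 81, at -0.42 (limma adjusted p = 0.00696). Among all other genes, the adhesion molecule Cadm1 went from 15.3, 14.1, 15.01 and 14.4 FPKM in WT to 7.67, 7.93 and 8.19 FPKM in KO (-0.82).

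The lipid lists as a whole were mixed. Of 28 tested genes of the lipid-associated macrophage program, 6 rose and 6 fell, with a median of 0.00, and this even split depends on the scaling: with TPM 3 rose and 7 fell, and with quantile scaling 8 rose and 7 fell. Of these 12 calls, 7 stayed called in each of the 7 fits that left out 1 library. Those that fell were Lpl (-0.93), Cd36 (-0.47), Itgax (-0.39), Atf3 (-0.31), Anxa2 (-0.17) and Plin2 (-0.12). Those that rose were Apoe (0.43), Csf1 (0.41), Gpnmb (0.26), Ctsl (0.20), Mmp12 (0.14) and Emp1 (0.13). Apoe, the lipoprotein carrier, stood at 65.2, 81.7, 68.4 and 67.5 FPKM in the WT libraries and 98.1, 89.5 and 98.4 FPKM in the KO libraries, with 65.8 FPKM in library 81, and library 81 lies in the WT range. Its call was lost without KO library 79 or 82, where the largest limma adjusted p was 0.0582. Spp1, Fabp5, Lgals3 and Cd9, markers of lipid-laden macrophages, did not pass (-0.09, 0.04, -0.07 and -0.03).

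Among 21 LXR targets and fatty acid synthesis genes 3 rose and 7 fell, the latter including Scd1, Pltp, Elovl6, Fads2, Srebf1, Lpcat3 and Scd2 (-0.42 to -0.13). The cholesterol exporter Abca1 rose by 0.23, a call lost without KO library 80 or 82 and under TPM scaling. Of 21 fatty acid oxidation and PPAR target genes, 2 rose and 5 fell, and the lipid droplet coat gene Plin2 fell by 0.12. None of 24 tested genes of cholesterol synthesis and uptake passed in limma, with a median of -0.02, and 2 had an unadjusted p under 0.05, while TPM scaling and voom each called 1 lower. With library 81, Scd1 was the single member of the LXR list and Hilpda the single member of the oxidation list that passed. Leaving out 1 library at a time, 2 of 10 calls of the LXR list and 2 of 7 of the oxidation list held in all 7 fits.

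**Figure D3:**
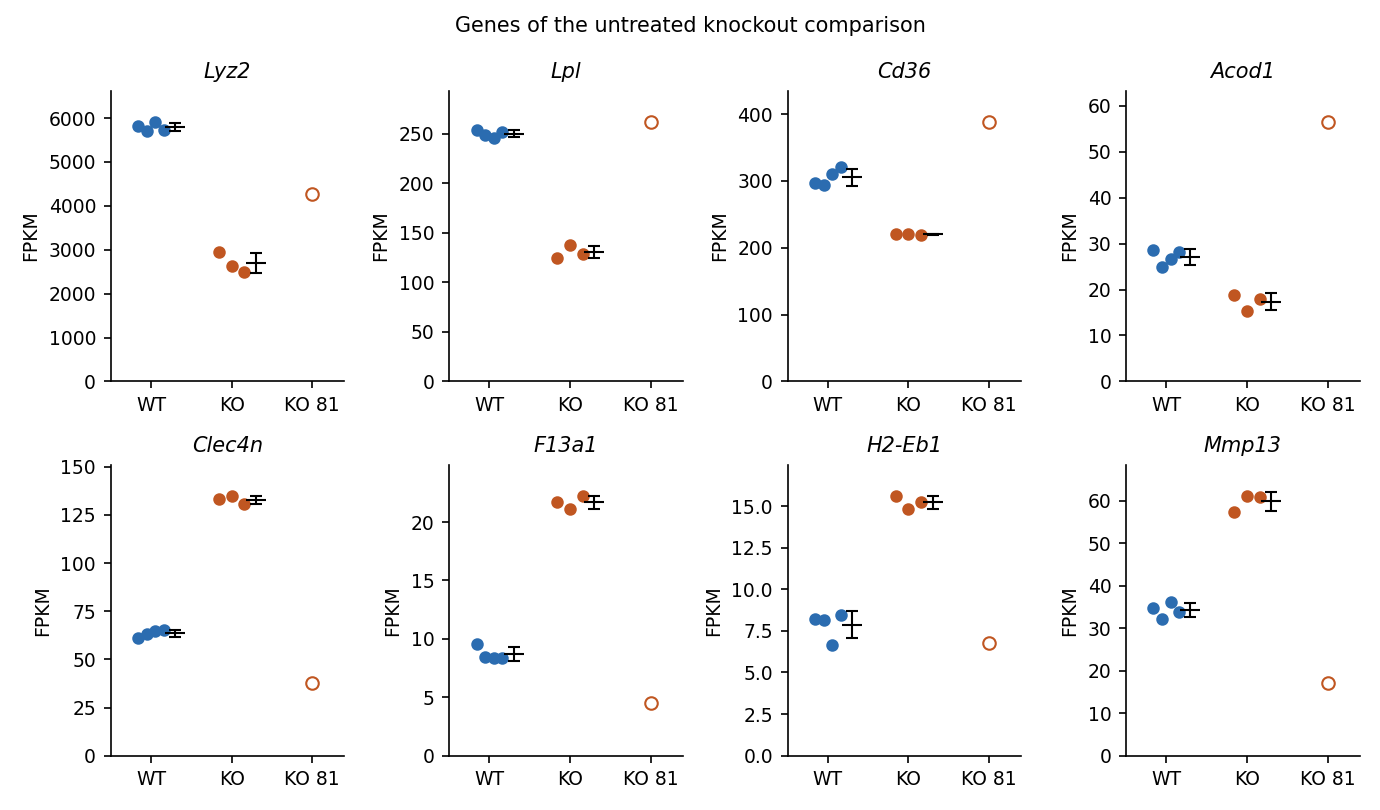
Levels in FPKM (vertical, from 0) of 8 genes in untreated WT and KO libraries, with 1 filled point per library, the group mean and SD beside them, and library 81 as an open circle. Lyz2, Lpl, Cd36 and Acod1 are lower and Clec4n, F13a1, H2-Eb1 and Mmp13 higher in KO, and library 81 lies on the WT side of the KO points in all 8 panels.

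Of 17 tested genes listed under alternative activation, the programme that interleukin 4 induces in macrophages, 8 rose and 1 fell (52.9%, against 8.03% of all genes). The median was 0.22, and the counts were the same under quantile and median scaling, while with TPM scaling 8 rose and 2 fell. The list also holds genes of resident-type or tissue macrophages, such as F13a1 and Cbr2, so its count is not a measure of that programme alone. Of these 9 calls, 8 held in each of the 7 fits that left out 1 library. Clec4n (dectin-2), a lectin receptor for fungal mannans, stood at 60.8, 63.2, 64.5 and 65.2 FPKM in the WT libraries and 133, 135 and 131 FPKM in the KO libraries, with 37.8 FPKM in library 81. KO levels were 2.095 times WT with hardly any spread, and library 81 was below WT. Clec4n rose by 1.06 (SE 0.03, limma adjusted p = 1.79e-06). Clec4e (mincle), a related receptor for microbial glycolipids, went the other way at 41.6, 42.3, 40.6 and 43.3 FPKM in WT and 34.2, 34.2 and 31.2 FPKM in KO (-0.33).

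F13a1, the clotting factor XIII subunit made by resident-type macrophages, stood at 9.6004, 8.45, 8.36 and 8.33 FPKM in the WT libraries and 21.8, 21.1 and 22.2 FPKM in the KO libraries, with 4.48 FPKM in library 81, and rose by 1.23 (SE 0.05, limma adjusted p = 9.8e-06). Cbr2, a carbonyl reductase of tissue macrophages, stood at 90.6, 93.7, 90.2 and 87.5 FPKM in the WT libraries and 145, 139 and 144 FPKM in the KO libraries, with 59.3 FPKM in library 81, and rose by 0.65 (SE 0.03, limma adjusted p = 1.99e-05). For both genes library 81 lay below every WT library, on the far side from KO. The others that rose were Chil3 (0.81), Arg1 (0.71), Il4ra (0.52), Fcrls (0.50) and Stab1 (0.33). Il4ra is the receptor that receives interleukin 4, and it stood at 12.1, 12.6, 12.6 and 12.1 FPKM in WT and 18.2, 17.3 and 18.97 FPKM in KO. Mgl2, a galactose lectin often used as a marker of the same programme, fell instead, from 107, 108, 106 and 105 FPKM to 73.7, 75.05 and 74.3 FPKM (-0.51). Mrc1, the mannose receptor, did not pass (0.08, limma adjusted p = 0.214). None of the 17 passed in limma with library 81 (6 at an unadjusted p under 0.05).

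Genes of classical MHC class II molecules, which present peptides to CD4 T cells, rose from a low level, while H2-DMa and H2-DMb1 of the loading factor H2-DM did not pass. H2-Eb1 stood at 8.23, 8.13, 6.65 and 8.45 FPKM in the WT libraries and 15.6, 14.8 and 15.3 FPKM in the KO libraries, with 6.77 FPKM in library 81. H2-Aa stood at 5.96, 6.03, 6.65 and 6.88 FPKM in the WT libraries and 11.6, 10.8 and 12.3 FPKM in the KO libraries, with 5.66 FPKM in library 81. In both, all 3 KO libraries are above all 4 WT libraries and library 81 is no higher than WT. H2-Eb1 rose by 0.88 (SE 0.07, limma adjusted p = 0.000306) and H2-Aa rose by 0.77 (SE 0.06, limma adjusted p = 0.000261).

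H2-Ab1 rose by 0.50 (SE 0.05, limma adjusted p = 0.000936), and Cd74, the invariant chain, rose by 0.31 (SE 0.06, limma adjusted p = 0.0169). Cd86, a costimulatory ligand, stood at 6.71, 6.68, 6.76 and 7.24 FPKM in the WT libraries and 11.9, 10.7 and 11.3 FPKM in the KO libraries, with 6.63 FPKM in library 81, and rose by 0.65 (SE 0.05, limma adjusted p = 0.000196). Of 22 tested genes of antigen presentation 6 rose and 1 fell, the sixth rise being B2m (0.17) and the fall Psmb8 (-0.18), and the median of the list was 0.03. Of these 7 calls, 5 kept their call in each of the 7 fits that left out 1 library. In voom, which could test 10 of the 22, 1 rose. H2-DMa and H2-DMb1, which load class II molecules, did not pass (0.10 and 0.00). H2-DMb2, outside the list, rose by 0.66 but was at most 1.24 FPKM in any of the 7 libraries. So near the filter of 1 FPKM, its entry to the test may rest on the KO libraries alone, and its rise is given as a description. Markers of dendritic cells, which carry much more class II, were sparse: 3 of the list were tested, H2-Aa itself, Itgax, which fell by 0.39, and Batf3, which did not pass (-0.24). Without H2-Aa the markers summed to 9.81 to 10.8 FPKM in WT, 8.12 to 8.89 FPKM in KO and 8.25 FPKM in library 81. Whether such cells had a part in the result was not tested, and in bulk libraries a change in the share of a cell type cannot be told apart from a change in RNA per cell. No gene of the antigen presentation list passed in limma with library 81 (6 at an unadjusted p under 0.05).

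The 250 bases before the starts of the 2 class II genes with the largest rises are shown for the Y box, the element that nuclear factor Y binds in class II promoters. They come from RefSeq on GRCm38.p6, H2-Aa at chr17:34287824-34288073 on the minus strand and H2-Eb1 at chr17:34305617-34305866 on the plus strand, and capitals mark CTGATTGG, searched on both strands.
H2-Aa: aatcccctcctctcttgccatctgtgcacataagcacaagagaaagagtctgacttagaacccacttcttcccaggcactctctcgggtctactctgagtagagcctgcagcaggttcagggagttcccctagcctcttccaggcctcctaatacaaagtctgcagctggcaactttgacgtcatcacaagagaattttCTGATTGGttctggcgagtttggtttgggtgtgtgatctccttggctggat
H2-Eb1: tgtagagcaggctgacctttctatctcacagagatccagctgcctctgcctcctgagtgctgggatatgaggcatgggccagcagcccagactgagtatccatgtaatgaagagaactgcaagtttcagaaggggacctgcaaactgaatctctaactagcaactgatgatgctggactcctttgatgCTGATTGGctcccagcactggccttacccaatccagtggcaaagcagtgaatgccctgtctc
The match lies from 51 to 44 bases before the start in H2-Aa and from 62 to 55 in H2-Eb1. It is found in 3.83% of the 32851 stretches, and not in those of H2-DMa, H2-DMb1 and H2-DMb2. No stretch was available for H2-Ab1 or Cd74, and an exact search misses variants of the element. The match is thus given as a description, and too few class II genes could be searched to compare those that rose with those that did not. Nfya, which encodes a subunit of the factor and lies next to Treml1, stood at 21.7, 21.4, 21.8 and 21.5 FPKM in WT and 21.8, 21.98 and 21.8 FPKM in KO (0.02, limma adjusted p = 0.722).

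Matrix-degrading enzymes of 1 gene cluster were higher. Mmp13 (collagenase 3) stood at 34.8, 32.2, 36.2 and 33.8 FPKM in the WT libraries and 57.3, 61.1 and 60.95 FPKM in the KO libraries, with 17.02 FPKM in library 81, and rose by 0.79 (SE 0.04, limma adjusted p = 3.83e-05). Mmp10 (stromelysin 2) stood at 1.63, 1.4998, 1.48 and 2.06 FPKM in the WT libraries and 6.35, 5.07 and 4.97 FPKM in the KO libraries, with 0.455 FPKM in library 81, and rose by 1.28 (SE 0.10, limma adjusted p = 0.000261). Mmp8 (neutrophil collagenase) stood at 67.8, 65.6, 72.9 and 68.7 FPKM in the WT libraries and 96.99, 95.5 and 99.3 FPKM in the KO libraries, with 20.9 FPKM in library 81, and rose by 0.50 (SE 0.04, limma adjusted p = 0.000261). In all 3 genes the KO libraries are above WT and library 81 is below, and for Mmp8 its addition turned the difference to -0.05 (limma adjusted p = 0.974). The stromelysin-like Mmp27 rose by 0.71 and the elastase Mmp12 by 0.14. These 5 are the tested ones of 10 annotated Mmp genes on chromosome 9, between 7272514 and 7581885 on GRCm38, a grouping made after the values were seen.

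Mmp9 (gelatinase B), on another chromosome, fell from 3.42, 3.94, 3.54 and 3.96 FPKM in WT to 1.18, 1.65 and 1.102 FPKM in KO (-1.03, SE 0.09), while library 81 reached 10.7 FPKM. Of 20 tested matrix and clotting genes 8 rose and 3 fell, with a median of 0.10. Of these 11 calls, 8 remained called in each of the 7 fits that left out 1 library. Thrombospondin 1 (Thbs1), a matrix protein that also bridges dying cells to phagocytes, stood at 9.23, 9.71, 9.24 and 9.35 FPKM in the WT libraries and 16.5, 17.5 and 17.5 FPKM in the KO libraries, with 10.2 FPKM in library 81, and rose by 0.81 (SE 0.04, limma adjusted p = 1.45e-05). Igf1, a growth factor for neighbouring cells, fell from 43.2, 41.9, 42.1 and 44.8 FPKM to 27.96, 30.4 and 27.1 FPKM (-0.58). Clotting factor V (F5) fell by 0.45 and passed with library 81 as well, the single member of this list to do so.

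Receptors and bridging proteins for dying cells were mixed. Of 26 tested, 8 rose and 4 fell, with a median of 0.03. Of these 12 calls, 10 stayed past the test in each of the 7 fits that left out 1 library. Mertk, the receptor kinase for corpses coated with GAS6 or protein S, stood at 10.6, 11.1, 10.1 and 10.6 FPKM in the WT libraries and 14.5, 15.7 and 15.6 FPKM in the KO libraries, with 11.3 FPKM in library 81, and rose by 0.49 (SE 0.04, limma adjusted p = 0.000516). Its ligand Gas6 rose by 0.25, while Pros1 (protein S) fell by 0.38 and Mfge8, which links phosphatidylserine to integrins, fell by 0.45. Also higher were Itgb3 (0.74), Cd300lf (0.48), Stab1 (0.33), Itgb5 (0.19) and Cd300a (0.19), and lower were Cd36 (-0.47) and Anxa1 (-0.19). The receptor kinase Axl did not pass (0.05). With library 81, Pros1 was the single member that passed (-0.40 (limma adjusted p = 0.0338)).

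Several inflammatory genes were lower. Of 25 tested NF-kB and cytokine genes 8 fell and 3 rose, with a median of -0.06. Of these 11 calls, 6 kept the call in each of the 7 fits that left out 1 library. Acod1, which makes the antimicrobial metabolite itaconate, stood at 28.7, 24.8, 26.7 and 28.2 FPKM in the WT libraries and 18.9, 15.4 and 17.8 FPKM in the KO libraries, with 56.5 FPKM in library 81, and fell by 0.62 (SE 0.07, limma adjusted p = 0.00213). The KO libraries are the lowest, and library 81 is far above both groups. The chemokine gene Cxcl10 stood at 9.44, 8.16, 8.32 and 7.78 FPKM in the WT libraries and 5.15, 5.36 and 5.93 FPKM in the KO libraries, with 18.04 FPKM in library 81, and fell by 0.54 (SE 0.07, limma adjusted p = 0.00272). Also lower were Cxcl1 (-0.75), Cxcl2 (-0.43), Cd40 (-0.41), Tnf (-0.22), Ccl4 (-0.20) and Tnfaip3 (-0.18), and higher were Ccl5 (0.40), Tnfaip2 (0.24) and Tnfsf9 (0.17). Cxcl2 kept its call with library 81, at -0.41 (limma adjusted p = 0.0371).

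The type I interferon response, the antiviral programme, was called at about the share of all genes (7.89% against 8.03%): 1 of 38 tested genes rose (Oas2, 0.21) and 2 fell (Cmpk2 (-0.35) and Phf11d (-0.28)), with a median of -0.05. With TPM scaling none rose and 6 fell, and in voom 3 rose and 7 fell. Library 81 was far above both groups here, with a summed level of the list of 3887 FPKM against 2441 to 2720 FPKM in WT and 2389 to 2469 FPKM in KO. Adding it turned the median to 0.16 and the Cmpk2 and Phf11d differences to 0.06 and 0.01. Of 17 complement and Fc receptor genes 5 fell, among them Cd59a (-0.44), Itgax (-0.39), Fcgr1 (-0.32) and C3 (-0.22), and 1 rose, while quantile scaling called 4 higher and voom 3. The gene that rose was Fcgr2b, the inhibitory Fc receptor, at 39.4, 39.3, 39.2 and 40.9 FPKM in the WT libraries and 56.6, 55.7 and 55.9 FPKM in the KO libraries, with 31.98 FPKM in library 81 (0.49, SE 0.03). Its activating counterpart Fcgr1 stood at 88.6, 83.1, 89.95 and 82.7 FPKM in the WT libraries and 67.99, 66.9 and 70.7 FPKM in the KO libraries, with 138 FPKM in library 81.

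Genes of DNA replication and mitosis were lower or did not pass. Of 32 tested none rose and 11 fell, with a median of -0.14, and TPM scaling called 19 lower. Pcna, the sliding clamp of the replication fork, stood at 215, 226, 219 and 231 FPKM in the WT libraries and 178, 172 and 174 FPKM in the KO libraries, with 231 FPKM in library 81, and fell by 0.35 (SE 0.03, limma adjusted p = 0.000609). The replicative helicase genes Mcm3 (-0.19), Mcm4 (-0.16), Mcm5 (-0.19) and Mcm6 (-0.16) and the mitotic genes Ube2c (-0.20), Aurkb (-0.18), Top2a (-0.17), Kif11 (-0.17), Cdc20 (-0.17) and Nusap1 (-0.16) fell by less than Pcna. Of these 11 calls, 1 held in each of the 7 fits that left out 1 library. Without KO library 80 the calls for Mcm4, Mcm5 and Mcm6 were lost, and without WT library 4 or KO library 79 or 82 those of 1 or 2 of them. Mki67, the usual proliferation marker, did not pass (-0.18, limma adjusted p = 0.0697). None passed in limma with library 81, although 27 reached an unadjusted p under 0.05 and the median with it was -0.16. Of 27 CSF1 receptor growth and survival genes 5 rose and 2 fell: Csf1 (0.41), Bcl2a1b (0.45), Ccnd2 (0.27), Csf2rb (0.26) and Csf2rb2 (0.21) were higher, the lower ones included Myc (-0.24), and 3 of the 7 calls held in all 7 fits that left out 1 library.

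Of 33 tested lysosomal genes 11 rose and 1 fell, with a median of 0.09, but with TPM scaling 3 rose and 2 fell, so this count depends on the scaling. Of these 12 calls, 6 stayed called in each of the 7 fits that left out 1 library. Legumain (Lgmn), an asparaginyl protease, had the largest rise of the list, at 304, 302, 313 and 298 FPKM in the WT libraries and 374, 372 and 381 FPKM in the KO libraries, with 321 FPKM in library 81 (0.30, SE 0.03). Cathepsins C, H, L and S rose by 0.13 to 0.21, and Atp6v0d2, a proton pump subunit of osteoclasts and lipid-laden macrophages, fell by 0.39. Of 24 NRF2 and oxidative stress genes 5 rose (Nqo1 (0.43), Gsr (0.23), Cat (0.21), Sqstm1 (0.21) and Gclm (0.18)) and 2 fell (Sod2 (-0.24) and Gpx1 (-0.22)). Of 24 genes of the integrated and endoplasmic reticulum stress responses none rose and 5 fell (Atf3 (-0.31), Psat1 (-0.31), Manf (-0.21), Creld2 (-0.20) and Hsp90b1 (-0.17)). Over the fits that left out 1 library, 4 of 7 calls of the NRF2 list and 3 of 5 of the stress list held in all 7. Glycolysis and hypoxia genes (1 rose and 1 fell of 27), respiratory chain subunits (2 fell of 28), immediate early genes (1 and 1 of 16) and genes of S1P receptors and metabolism (1 rose of 13) each held 1 or 2 calls.

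**Figure D4:**
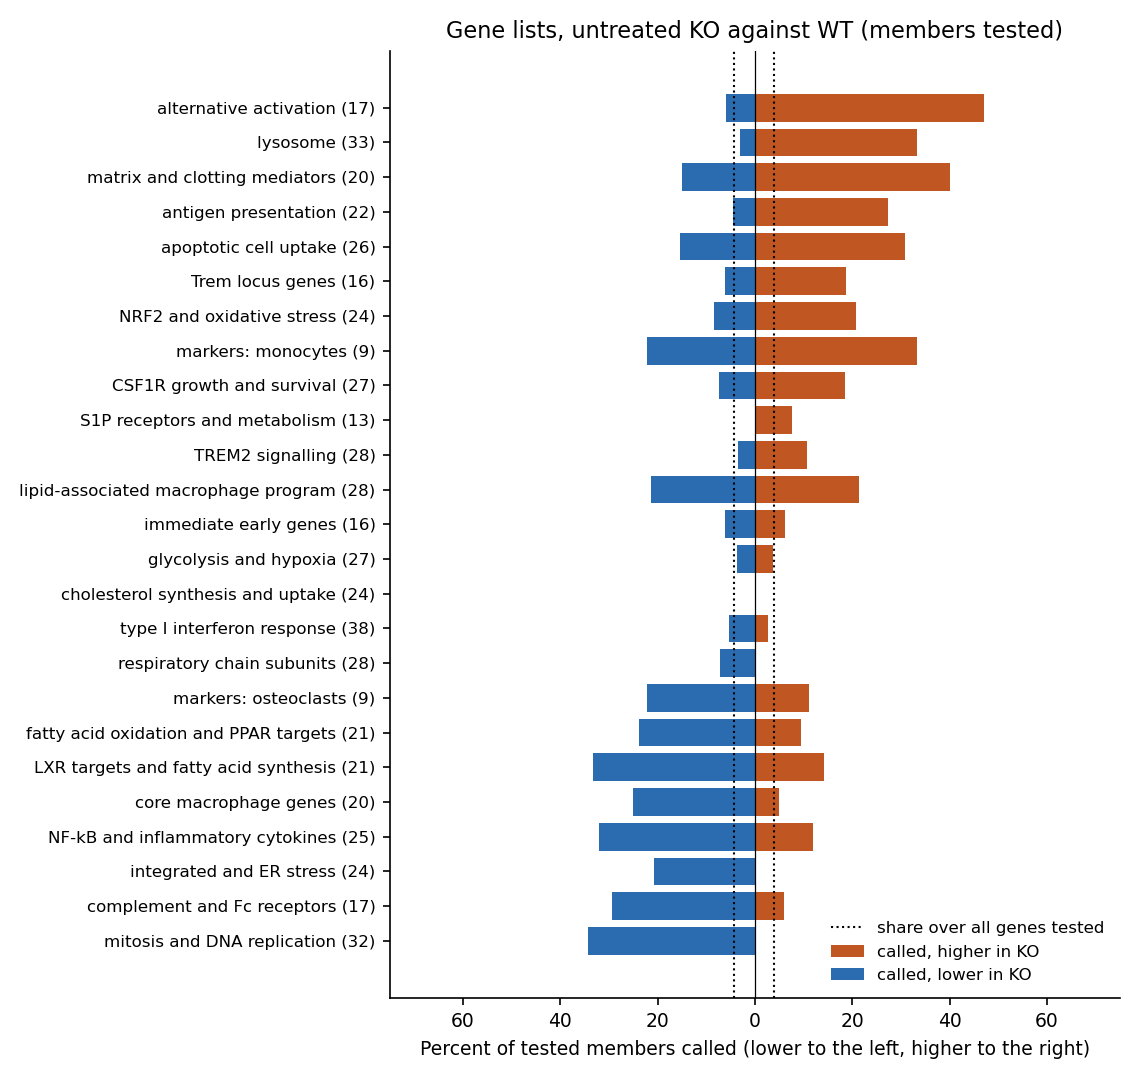
Percent of the tested members of each gene list with 9 or more members tested (number in brackets) that passed the test, higher in KO to the right and lower to the left, with dotted lines at the shares over all genes, 3.82% higher and 4.21% lower. The alternative activation and matrix lists extend furthest to the right, mitosis and DNA replication furthest to the left, and cholesterol synthesis has no bar.

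One of the most abundant macrophage transcripts fell strongly. Lysozyme 2 (Lyz2), the bacteria-digesting enzyme of myeloid cells, stood at 5819.8, 5697, 5917 and 5733 FPKM in the WT libraries and 2941, 2638 and 2495 FPKM in the KO libraries, with 4258 FPKM in library 81. It fell by 1.11 (SE 0.06, limma adjusted p = 2.38e-05), and library 81 lies between the groups, so that the call held with it at -0.94 (limma adjusted p = 0.045). Its paralogue Lyz1 was at 1.49 to 3.41 FPKM in WT and did not pass (0.38), and reads shared by the 2 copies could have been split between them. Of 20 core macrophage genes 5 fell, among them Lyz2 (-1.11), Aif1 (-0.45), Fcgr1 (-0.32) and Cd14 (-0.26), and Mertk rose, with a median of 0.02.

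Granulocyte markers were low but higher in KO. Of 14 listed markers 6 were tested and 4 passed, all higher (S100a9 (1.19), S100a8 (0.85), Ngp (0.61) and Padi4 (0.32)), with a median of 0.49. Ngp was at 0.496 to 0.912 FPKM in WT, so it entered the test through the KO libraries alone and its rise is a description. The summed level of the list was 18.8 to 21.4 FPKM in WT, 29.8 to 35.8 FPKM in KO and 20.03 FPKM in library 81. S100a8, a subunit of calprotectin, stood at 2.86, 1.61, 3.02 and 2.93 FPKM in the WT libraries and 6.13, 5.05 and 5.04 FPKM in the KO libraries, with 2.78 FPKM in library 81. Its call was lost without KO library 79 (largest limma adjusted p = 0.0581), and that of S100a9 without WT library 2 or KO library 79 or 82, so that 0 of 4 granulocyte calls held in all 7 fits that left out 1 library. Mmp8 and Chil3 are also made by neutrophils, and the part of such cells in their differences was not tested. Of 9 monocyte markers 3 rose (F13a1 (1.23), Chil3 (0.81) and Ly6c2 (0.47)) and 2 fell, among them Ccr2 (-0.41). Platelet factor genes Pf4 and Ppbp rose (Pf4 (0.34) and Ppbp (0.82)), and the immunoglobulin heavy chain gene Ighm fell from 9.28, 10.1, 11.02 and 10.02 FPKM to 4.34, 4.63 and 4.87 FPKM. Fibroblast and L929 markers summed to at most 0.965 FPKM in every one of the 7 libraries, with none tested.

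A few transcripts marked the genotype almost completely. Gm42031, a long noncoding RNA on chromosome 8, stood at 39.8, 51.9, 37.05 and 46.9 FPKM in the WT libraries and 0.548, 0.0295 and 0 FPKM in the KO libraries, with 37.9 FPKM in library 81 (-5.25, SE 0.17). The pseudogene Gm28438 on chromosome 1 stood at 53.8, 47.1, 49.1 and 51.5 FPKM in the WT libraries and 4.49, 5.64 and 3.77 FPKM in the KO libraries, with 55.2 FPKM in library 81 (-3.20). Ifi208, of the interferon-inducible p200 family, was at most 0.0314 FPKM in the WT libraries and at 2.46, 2.698 and 2.93 FPKM in KO, while its relatives Ifi204 and Ifi209 did not pass (-0.06 and -0.08). Gm15446 on chromosome 5 was at 0.0146 to 0.0804 FPKM in WT and 1.69, 1.59 and 1.59 FPKM in KO. Ifi208 and Gm15446 thus entered the test through the KO libraries alone, at low levels, and their rises are descriptions. For all 4 transcripts library 81 lay at the WT level, and all 4 separated the 12 WT libraries of the study from its 11 other KO libraries. They were named for a small p with the same sign in all 3 genotype contrasts. This separation thus follows from how they were chosen and is no separate result. None of them lies on chromosome 17.

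Dynlt1b, a dynein light chain gene on chromosome 17, fell from 15.4, 22.9, 19.03 and 24.04 FPKM to 7.12, 5.84 and 5.35 FPKM (-1.57), but similar copies (Dynlt1a, Dynlt1c and Dynlt1f, none of which passed) may share its reads, so this value is uncertain. The neighbouring pseudogene Tmem181b-ps fell as well (-1.07). Ifi208 also belongs to a family of similar copies. Genes that can differ between C57BL/6 substrains were mixed: Wdfy1 stood at 8.495, 8.34, 9.17 and 8.37 FPKM in the WT libraries and 5.56, 5.67 and 5.42 FPKM in the KO libraries, with 9.23 FPKM in library 81 (-0.55), Ide at 14.2, 14.3, 14.3 and 14.9 FPKM in WT and 19.9, 19.4 and 19.2 FPKM in KO (0.41), Fgfbp3 did not pass (0.27), and Nnt was at most 0.142 FPKM in both groups. The labels give C57BL/6 for all groups and no substrain, and whether genetic background beyond Trem2 differs was not tested. Of 8 tested sex-linked transcripts, Eif2s3y alone passed (0.23, lost in 6 of 7 fits that leave out a library), and Ddx3y was at 17.4, 13.99, 15.8 and 16.96 FPKM in WT and 17.1, 18.3 and 15.3 FPKM in KO.

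The transfer RNA gene mt-Tg of the mitochondrial genome, chosen after its values were seen, was listed at 0 in all 4 WT libraries and in library 81, and at 9.35, 7.36 and 7.25 FPKM in the KO libraries (3.16, SE 0.09). It thus entered the test through the KO libraries alone. It was listed at 0 in all 12 WT libraries and at 0.633 to 10.4 FPKM in the 11 other KO libraries. It encodes the glycine transfer RNA, and its sequence from GENCODE M21 at chrM:9391-9458 on GRCm38 is shown because so short a gene rests on few read positions.
mt-Tg: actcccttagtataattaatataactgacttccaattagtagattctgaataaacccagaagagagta
With 68 bases it sits inside a longer precursor transcript, and the part of reads from adjoining transcripts in its value was not tested. The gene directly after it, mt-Nd3, a subunit of respiratory complex I also chosen after its values were seen, stood at 4.59, 1.601, 4.23 and 4.23 FPKM in the WT libraries and 22.7, 21.1 and 17.7 FPKM in the KO libraries, with 4.33 FPKM in library 81. It rose by 2.26 (SE 0.25, limma adjusted p = 0.00164), in the same direction as mt-Tg and opposite to Gm28438. The mt-Nd3 level too separated the 12 WT from the 11 other KO libraries. Gm28438 is a pseudogene, and whether it and mt-Nd3 share reads was not tested, so both values are uncertain.

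Many of the untreated differences appeared again in libraries that the untreated test did not use, the ACM and S1P libraries of the 2 genotypes. The contrasts come from a fit of all 6 groups without library 81 (23 libraries, 11355 genes). KO differed from WT in 3373 genes under ACM (29.7%; 13.4% higher, 16.3% lower) and in 6136 under S1P (54%; 27.7% higher, 26.3% lower). Of 413 genes called higher untreated and tested in both fits, 236 were also higher under ACM (57.1% of them, and 15.8% of the genes higher under ACM) and 36 were lower. Under S1P 231 were also higher (55.9%, and 7.44% of the genes higher under S1P) and 84 lower. Of 457 genes called lower untreated, 246 were lower under ACM (53.8%, and 13.8% of the genes lower under ACM) and 34 higher. Under S1P 202 were lower (44.2%, and 7.06%) and 146 higher. Both treatments kept the direction for 191 of the higher and 178 of the lower genes.

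Treml1, Lpl, Cadm1, Cd36 and H2-Eb1 kept their direction throughout. Treml1 was 1.73 (limma adjusted p = 2.81e-11) under ACM and 1.76 (limma adjusted p = 7.19e-12) under S1P. Lpl was -1.24 (limma adjusted p = 2.31e-15) and -1.56 (limma adjusted p = 2.64e-17). H2-Eb1 was 1.00 (limma adjusted p = 3.59e-09) and 0.89 (limma adjusted p = 6.92e-09). By contrast Clec4n was 1.35 (limma adjusted p = 5.2e-09) under ACM but -0.36 (limma adjusted p = 0.00905) under S1P. Lyz2 was -0.63 (limma adjusted p = 2.17e-05) under ACM and did not pass under S1P, at -0.15 (limma adjusted p = 0.181). Ighm turned to 0.82 (limma adjusted p = 4.66e-06) and 1.27 (limma adjusted p = 3.34e-09), Scd1 to 0.29 (limma adjusted p = 3.26e-06) and 0.38 (limma adjusted p = 2.53e-08), and Malat1, a nuclear noncoding RNA, to -0.43 (limma adjusted p = 0.0493) and -0.39 (limma adjusted p = 0.0442).

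**Figure D5:**
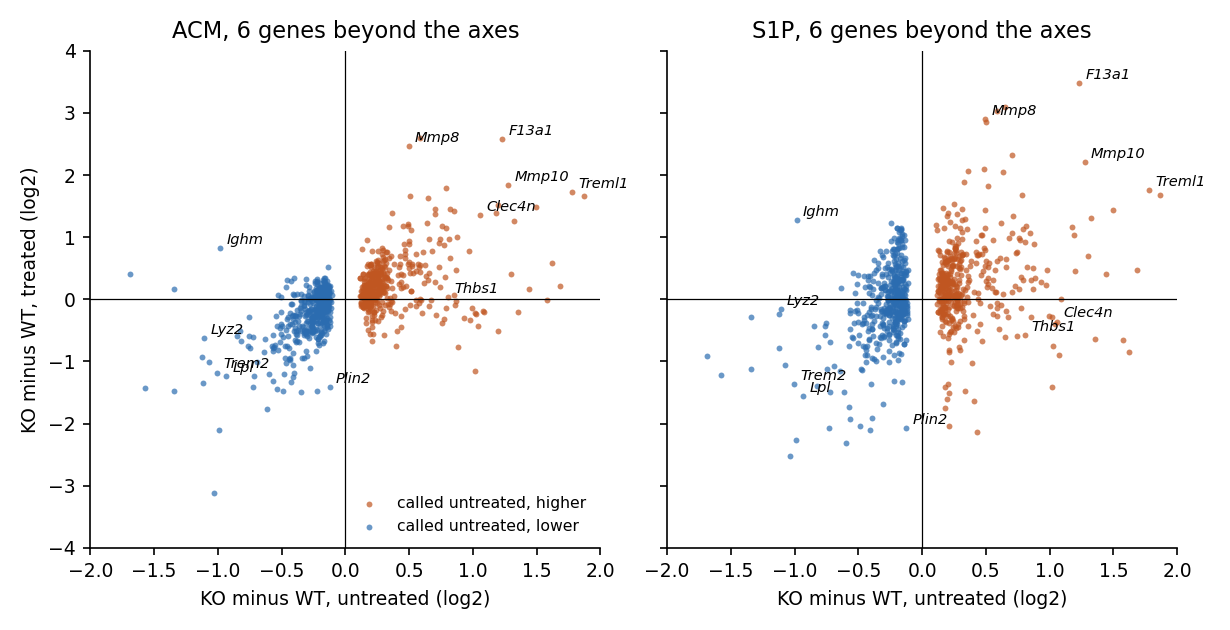
KO minus WT difference (log2 of FPKM + 1) of the 870 genes that passed untreated and were tested under both treatments (horizontal) against the same difference under ACM (left) and S1P (right), from separate libraries, with 6 genes beyond the axes in each panel and coloured by their direction untreated. Genes higher untreated lie mostly above 0 under ACM and genes lower mostly below 0, while under S1P both colours spread across 0.

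The difference between the untreated and the treated genotype effect was tested itself. It passed for 1693 genes against ACM (14.9%; 8.74% with a positive untreated minus treated value and 6.17% negative) and for 4719 against S1P (41.6%; 19.2% and 22.3%). The sign does not give which effect was larger, since a fall that was deeper under treatment also counts as positive. Of the 870 untreated calls tested in both fits, 349 passed against ACM and 579 against S1P. The untreated rise of Mmp8 was smaller than that under ACM and S1P, the differences being -1.97 and -2.40, and so was that of the membrane protein gene Ifitm1, at -2.02 and -2.44. Plin2 fell by 0.12 untreated but differed by -1.42 under ACM and -2.07 under S1P. Thbs1 went the other way: it rose by 0.81 untreated, was 0.03 (limma adjusted p = 0.581) under ACM and -0.57 (limma adjusted p = 1.25e-10) under S1P, and its interaction values were 0.78 and 1.38. Cdkn1c, a cell cycle inhibitor gene, did not pass untreated (-0.05) and was -5.61 (limma adjusted p = 1.08e-17) under S1P. The 3 KO libraries lay about as near to the treated KO groups as to each other: their root mean square distance was 0.183 to 0.198 from the mean of the other 2, and 0.173 to 0.202 from the means of the KO ACM and KO S1P libraries, which average over 4 libraries.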

How the data were processed

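The authors deposited 1 table of FPKM for 54532 genes in 24 libraries of oligo(dT)-selected RNA. Per the submitters' processing notes HISAT2, STAR, featureCounts, StringTie, edgeR and DESeq and the builds mm10 and GRCm38 were named, with no roles; no source used here says whether counting used strand. FPKM divided by what 1 read is worth at GENCODE M21 exon length gave whole reads (within 0.05) in every library for 96.6% of 27002 expressed genes, which supplied read totals and an added voom fit. Main test: limma 3.58.1 (R 4.3.3) with a mean-variance trend on log2(FPKM + 1), 2-sided, over genes reaching 1 FPKM in 3 or more of the 7 libraries, Benjamini-Hochberg over 10847 genes, called at an adjusted p under 0.05. ACM, S1P and interaction contrasts came from 1 fit of 6 group means over 23 libraries (1 FPKM or more in 4 or more libraries).

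Library 81 was left out of the main test and added as an alternative, as were each library in turn, other pseudocounts, filters and scalings. The comparison, 32 gene lists and the naming rule were chosen with earlier results of these data known. Named were the Trem locus genes, up to 15 of the largest non-overlapping changes per direction with a mean of at least 5 FPKM, up to 4 called members per list, up to 10 genes per interaction, up to 10 with the same sign in all 3 genotype contrasts, and tested sex-linked and substrain genes; other genes are named as list members or chosen after their values were seen. Some genes that these rules name are not reported here. Lists are described by counts and medians, with no set test. Exact permutation of 3 against 4 libraries cannot go below 0.0571. On simulated data the untreated fit (10847 genes) recovered 60%, 94%, 100% and 100% of changes of 0.25, 0.5, 1 and 2 log2 units, with 9 calls among unchanged genes. The changes were placed in genes above about 5 FPKM and the spread was drawn independently per gene. Recovery in weaker genes and shifts shared by a whole group are thus not covered. The samples' depth limits precision: totals of 17.7 to 25.2 M reads. Intervals from read counts are not given, since FPKM are not counts.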

Additional observations from a re-analysis of the deposited data

Results flagged for a closer look

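Among the 4 untreated libraries labelled KO, library 81 lay far from the other 3, by Dixon's criterion for 1 sample far from the rest, for 13 of 43 genes looked at. It was high for Lpl (262 FPKM), Plk2 (51.6), Acod1 (56.5), Trem2 (79.6) and Cadm1 (15.6). It was low for Clec4n (37.8 FPKM), Nfya (20.6), Ppbp (7.62), Aqp9 (6.61), F13a1 (4.48), Thbs1 (10.2), Mmp10 (0.455) and H2-Eb1 (6.77). In the WT group the same criterion singled out library 1 for F13a1 (9.6000 FPKM), library 2 for S100a8 (1.605 FPKM) and library 3 for H2-Eb1 (6.65 FPKM). With 86 groups looked at, chance alone singles out about 1 in 20 where genes are chosen without regard to their values. That rate cannot be set against the 13 genes of library 81. Lpl, Clec4n, Thbs1 and others were named as largest changes in the test without library 81, and its Trem2 level led to its exclusion. The 13 genes are thus given as a description and are no separate evidence about library 81.

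Genotype differences that depended on treatment were singled out among the 10 genes with the smallest adjusted p in each interaction (limma, untreated minus treated KO minus WT difference, log2). Against ACM the values were -1.97 for Mmp8, 1.30 for Plin2, -2.02 for Ifitm1, 0.63 for Sema4d, -0.82 for Pf4, 0.78 for Thbs1, 0.61 for Lipa, -0.71 for Scd1, 2.61 for Cdkn1c and 1.14 for Acod1. Against S1P they were 1.95 for Plin2, 5.56 for Cdkn1c, -2.40 for Mmp8, 1.38 for Thbs1, -2.44 for Ifitm1, 1.03 for Lipa, 1.82 for Pla2g7, 2.57 for Nqo1 and -1.01 for Aacs.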

How the results depend on the processing

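The main count of 871 untreated calls (414 higher, 457 lower) fell to 33 (14 and 19) with library 81 and ranged from 403 to 723 when 1 library was left out: 568 without WT library 4, 447 without KO library 79, 433 without 80 and 403 without 82. Higher calls then ranged from 177 to 354 and lower calls from 216 to 369. Of the 871, 319 passed in every one of these 7 fits, as did 85 of the 113 named genes that passed. Without a filter 589 genes passed, 266 of them lower. TPM scaling gave 268 higher and 765 lower calls and moved the median of all genes from -0.01 to -0.05. Voom on recovered reads gave 1313 calls, 696 higher, of which 752 were among the 871. Pseudocount 0.1, an FPKM filter of 5, quantile and median scaling, the 6-group fit and robust empirical Bayes gave 863 to 937 calls. With library 81, 12 of the 113 named genes that passed kept their call and 101 lost it, 5 of these with a turned sign: Mmp8 (-0.0468), Cmpk2 (0.0557), C3 (0.00922), Plin2 (0.0672) and Phf11d (0.00702). None of the 113 changed sign under another setting. The ACM, S1P and interaction counts stayed within 1.5 times of their values under every alternative run. No paired analysis was possible because the 2 genotypes share no library numbers. The cause of these changes was not tested. With 3 and 4 libraries, changes of 0.25 log2 units are often missed.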

Other observations

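Other genes among the largest untreated changes belong to none of the groups above. Ms4a7, a membrane protein of macrophages and microglia, rose by 0.97, from 10.4, 10.9, 10.6 and 11.2 FPKM in WT to 24.04, 20.9 and 21.6 FPKM in KO, with 13.1 FPKM in library 81. Aqp9, a channel for water and glycerol, rose by 0.82, from 6.499, 7.39, 6.82 and 7.04 FPKM in WT to 12.8, 13.5 and 12.7 FPKM in KO, with 6.605 FPKM in library 81. Malat1, a nuclear noncoding RNA, rose by 1.04, from 147, 107, 125 and 130.0 FPKM in WT to 248, 279 and 259 FPKM in KO, with 189 FPKM in library 81. For these 3 genes the KO libraries lie above WT without overlap, and library 81 is above WT for Ms4a7 and Malat1.

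Plk2, a stress-responsive kinase gene, fell by 0.73, from 33.8, 36.9, 32.95 and 36.8 FPKM in WT to 20.5, 21.8 and 20.1 FPKM in KO, with 51.6 FPKM in library 81. Lsr, a lipoprotein receptor gene, fell by 0.85, from 6.57, 7.97, 7.54 and 7.41 FPKM in WT to 2.86, 4.53 and 3.67 FPKM in KO, with 4.52 FPKM in library 81. Library 81 is above WT for Plk2 and inside the KO range for Lsr, which kept its call with library 81 at -0.79 (limma adjusted p = 0.0412). The signalling gene Wnt6 (-0.63), the cadherin gene Fat3 (-0.76), the lectin gene Clec2i (-0.73) and Gadd45b (-0.57) were also lower. Lars2, a mitochondrial leucyl-tRNA synthetase gene, was at 98.9, 59.8, 61.999 and 78.6 FPKM in WT and 140.1, 121 and 165 FPKM in KO (0.93), a call lost without KO library 79 or 82, and its levels spread widely in WT. The share of the FPKM sum taken by Gm23935 was also higher in KO (9.55 to 13.5%) than in WT (5.29 to 9.18%) without overlap, and its part in the Lars2 and Malat1 differences was not tested.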
